A study of Mus musculus with 30 samples.

Results

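The Slit and Robo genes examined here are the ligand genes Slit1, Slit2 and Slit3, the receptor genes Robo1, Robo2 and Robo3 and the effector genes Srgap1, Srgap2 and Srgap3. They were taken by symbol from both deposited tables, and all 9 were found among 38720 listed genes. SLIT proteins are secreted guidance cues that repel growing axons, and ROBO proteins are their transmembrane receptors on the growth cone. The srGAP proteins are GTPase-activating proteins that bind the cytoplasmic tail of ROBO1. In the embryonic mouse retina and optic chiasm, Slit1 and Slit2 steer the axons of retinal ganglion cells (RGCs) and Robo2 is their main receptor. Mammalian ROBO3 has little affinity for SLIT and binds the secreted protein NELL2.

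The study separated newborn mouse retina (postnatal day 0) with magnetic beads against CD90, the product of Thy1, into an RGC fraction and a non-RGC fraction, which the labels describe as the other retinal cells pooled together. Poly(A) RNA was sequenced from 18 libraries, and the deposited tables cover 9 of them, namely 3 of mutant non-RGC cells, 3 of mutant RGCs and 3 of WT RGCs. The labels give 2 mutant genotypes, dKO (Math5Cre; Ezh2f/fG9af/+) and sKO (Math5Cre; Ezh2f/f), so that G9a is floxed on 1 allele in dKO mice and on none in sKO mice. The tables write only "mut", and do not say which of them was used. Throughout, mutant means labelled so in the tables. The WT mice are labelled C57BL/6, with neither a Cre nor a floxed allele named, so an effect of the Cre allele or of strain background cannot be told apart from that of the deletion. Math5 is another name of Atoh7, a gene active in progenitors that give rise to RGCs, and cells outside that lineage are not expected to lose Ezh2, the H3K27 methyltransferase of Polycomb repressive complex 2. The tables hold means of 3 libraries, from which each library's whole reads were worked out. Numbers 1 to 3 order the libraries of each group from the highest to the lowest size factor and match no sample number in the labels. Separate animals or litters per library are not stated, so the spread behind each p-value is that among these libraries and may be technical.

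The libraries held between 10551825 and 12259494 reads. Ezh2 had 1944, 1924 and 1851 normalised counts in mutant RGCs and 1144, 1154 and 1568 in WT RGCs, and Ehmt2, which encodes G9a, had 2342, 2891 and 3026.5 in mutant RGCs and 3712, 3554 and 3839 in WT RGCs. Ezh2 was thus called higher (limma adjusted p = 0.0292) and Ehmt2 lower (0.0332) in the libraries labelled mutant. Reads over the whole gene were counted and the floxed exons are not named in the labels, so these levels check neither the deletion nor the labels. All 14 RGC markers examined were detected in each group. Their summed normalised count was between 4272 and 8825 in mutant non-RGC, between 14729 and 23643 in mutant RGC and between 30532 and 35734 in WT RGC libraries. Mutant RGC library 1 stood apart from the other 2 mutant RGC libraries, with the lowest RGC sum (14729) and the highest sums of microglia (6357 against 1851 and 1678), photoreceptor (13694.5 against 8682 and 9282), endothelial and pericyte (9131 against 5370.1 and 5504) and pigment epithelium markers (650.5 against 276 and 343). WT library 3 had the lowest RGC sum of the WT libraries and the highest sum of dividing cell markers, 12346 against 7164 and 8182.

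The members are spread over 8 chromosomes (GRCm38). The receptor genes lie in pairs, and Robo1 (1020.0 kb) and Robo2 (1555.5 kb) are long while Robo3 (17.4 kb) is short. Robo1 (chromosome 16, 72027518 to 73047491) and Robo2 (chromosome 16, 73891976 to 75447443) are neighbours 844 kb apart, and Robo3 (chromosome 9, 37416045 to 37433436) lies 2.02 kb from Robo4 (37401902 to 37414023), the endothelial member of the family. The ligand genes are Slit1 (chromosome 19, 41597824 to 41747275), Slit2 (chromosome 5, 47981291 to 48307735) and Slit3 (chromosome 11, 35121456 to 35708507). The effector genes are Srgap1 (chromosome 10, 121780991 to 122047911), Srgap2 (chromosome 1, 131285251 to 131527531) and Srgap3 (chromosome 6, 112717971 to 112947505). The promoters of Robo1, Robo2, Robo3 and Srgap1 are shown because Robo1, Robo2 and Srgap1 carry the differences described below, because Robo3 varied most between libraries among the receptor genes and because Polycomb complexes are known to favour CpG-rich promoters. Each sequence gives the 250 bases before a RefSeq start on GRCm38.p6, 5′ to 3′ on the strand of the gene, with CG dinucleotides in capitals. For Robo2 the most upstream of 3 listed starts is shown, and the Robo1 start lies inside the annotated gene.
Robo1, chr16:72662899-72663148, plus strand: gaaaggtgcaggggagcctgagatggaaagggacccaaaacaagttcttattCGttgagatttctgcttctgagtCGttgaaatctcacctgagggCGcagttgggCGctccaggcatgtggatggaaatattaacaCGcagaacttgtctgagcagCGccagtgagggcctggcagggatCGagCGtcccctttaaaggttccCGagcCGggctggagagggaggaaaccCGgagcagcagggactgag
Robo2, chr16:75447294-75447543, minus strand: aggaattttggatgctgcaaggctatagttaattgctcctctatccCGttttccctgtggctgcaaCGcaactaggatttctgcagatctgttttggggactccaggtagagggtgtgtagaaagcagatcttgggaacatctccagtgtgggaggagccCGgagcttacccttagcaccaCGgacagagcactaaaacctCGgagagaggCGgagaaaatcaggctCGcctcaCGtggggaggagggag
Robo3, chr9:37433176-37433425, minus strand: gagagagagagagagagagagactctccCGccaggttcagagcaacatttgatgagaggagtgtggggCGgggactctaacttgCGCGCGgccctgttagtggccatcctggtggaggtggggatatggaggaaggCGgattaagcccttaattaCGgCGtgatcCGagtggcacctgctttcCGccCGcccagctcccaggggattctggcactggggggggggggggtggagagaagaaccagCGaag
Srgap1, chr10:122047316-122047565, minus strand: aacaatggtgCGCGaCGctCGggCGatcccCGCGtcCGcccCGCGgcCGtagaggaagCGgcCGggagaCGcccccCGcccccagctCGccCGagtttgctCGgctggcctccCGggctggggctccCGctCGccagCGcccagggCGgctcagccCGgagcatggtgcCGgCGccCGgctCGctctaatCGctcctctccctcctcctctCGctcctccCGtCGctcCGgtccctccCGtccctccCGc
The Srgap1 promoter holds 35 CG dinucleotides, and 97.0% of 32851 mouse promoters of this length hold fewer. The Robo promoters shown are nearer to the median of 6, with 11 for Robo1, 8 for Robo2 and 12 for Robo3. Of the other members, Slit3 has 35, Slit2 has 25, Srgap2 has 14 and Srgap3 has 7, and the other two Robo2 starts have 4 and 14. At least 1 CG is present in 92.1% of all promoters. Chromatin data were not analysed here, so no methylation level stands beside these sequences.

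**Figure D1:**
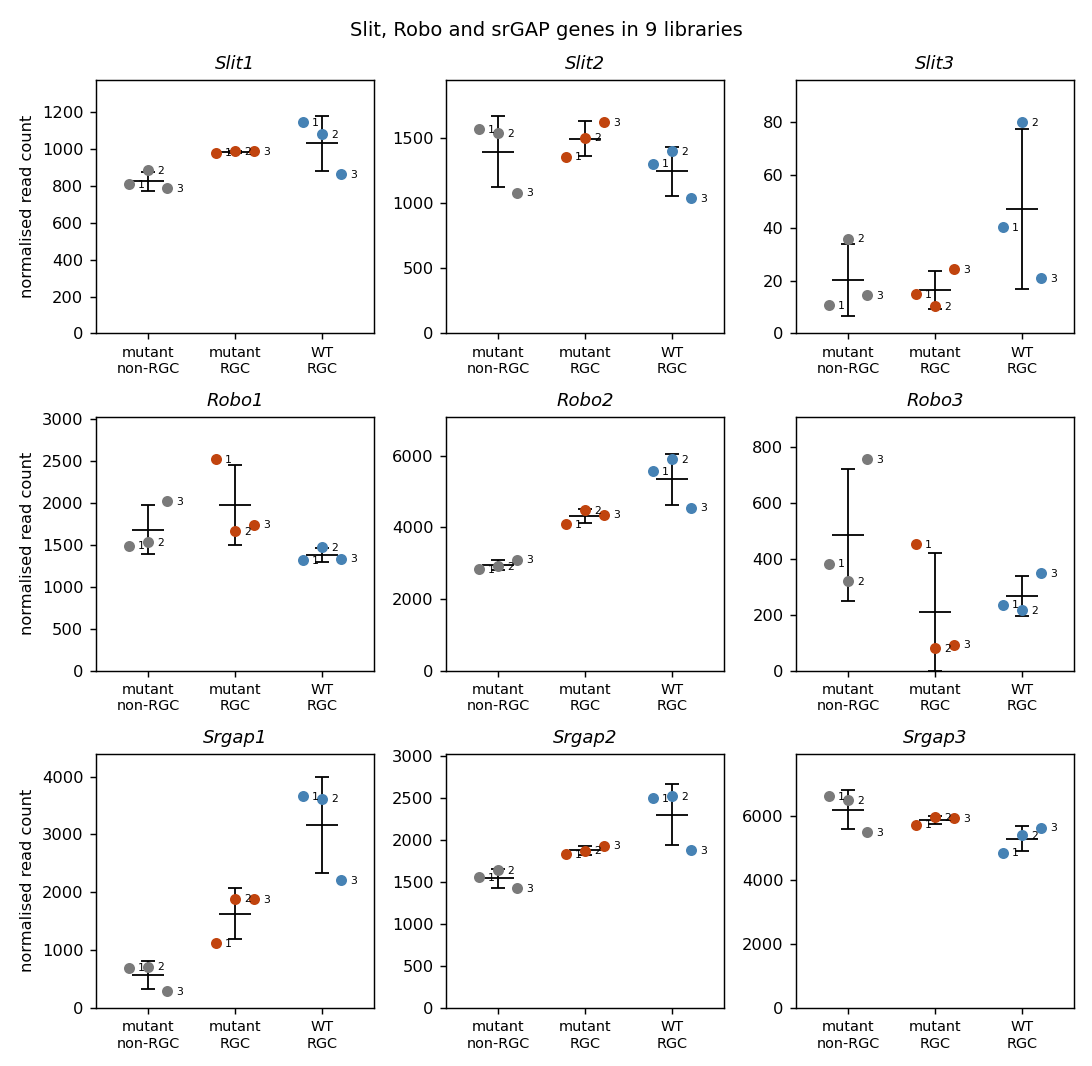
Normalised read count (vertical axes, from 0) of each member in mutant non-RGC, mutant RGC and WT RGC libraries, on 1 scale common to the 9 libraries; points are libraries with their numbers, bars the mean ± SD of 3. The group means of Slit1, Robo2, Srgap1 and Srgap2 form 3 steps, lowest in mutant non-RGC and highest in WT RGC libraries. The step from mutant RGC to WT RGC libraries passed the limma test of 6 libraries for none of them. In 1 fit of all 9 libraries, on the scale plotted, it passed for Robo2 (limma adjusted p = 0.036). Robo3 is low in mutant RGC libraries 2 and 3 alone.

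The first comparison sets bead-selected RGCs labelled mutant against WT RGCs and asks which genes of SLIT signalling differ. Robo1 was the 1 member called higher in mutant RGCs, by 1.45-fold, and it passed the threshold narrowly. Srgap1 was 1.90-fold lower and missed the threshold narrowly, and the remaining 7 members did not pass. Over 14 alternatives of processing or left-out libraries, Robo1 and Srgap1 were called in 6 each. In a bulk fraction, fewer cells of a type and less RNA per cell cannot be told apart. Values in this comparison are normalised counts with the size factors of the authors' table of genotypes, given for libraries 1, 2 and 3 in turn. A call is a Benjamini-Hochberg adjusted p under 0.05 from limma, fitted to log2(value + 1) over 15276 genes with a mean of at least 10. Of these genes 13.7% were called higher and 12.3% lower in mutant RGCs, so 1 of 9 members higher and none lower by limma is not above the rate of the table. At an unadjusted p under 0.05, 1 member was higher and 3 were lower, where 22.6% of all genes tested were higher and 22.4% lower. The median log2 fold change was -0.25 over the 9 members and 0.00 over all genes tested.

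Among the receptors, Robo1 had 2494, 1711 and 1773 in mutant RGCs and 1304, 1446 and 1326 in WT RGCs. Every mutant RGC library was above every WT library, and mutant RGC library 1 was far above the rest. The log2 fold change was 0.53 (SE 0.15, limma adjusted p = 0.0434), while the authors' deposited table does not call it, at an adjusted p of 0.0790. Robo2, the main SLIT receptor of RGC axons, had 4050.4, 4624 and 4442 in mutant RGCs and 5517, 5819.8 and 4520.3 in WT RGCs. WT library 3 lay among the mutant libraries, and the difference did not pass (log2 -0.27, 95% interval -0.53 to -0.003, limma adjusted p = 0.108). Robo3 had 448, 82.9 and 94.5 in mutant RGCs and 234, 213 and 346 in WT RGCs. Mutant RGC library 1 was above all WT libraries while the other two were below all of them, so the groups overlapped and the interval was wide (log2 -0.76, 95% interval -2.26 to 0.75, limma adjusted p = 0.389). Robo4, which is no member and marks endothelial cells, showed the same library apart, with 98.1, 8.68 and 8.95 in mutant RGCs and between 5.85 and 34.3 in WT RGCs. In mutant non-RGC cells, on the scale of the second comparison below, Robo4 had 8.02, 17.1 and 9.57 and Robo3 398, 331 and 781. A link between the values of Robo4 and Robo3 was not tested.

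The ligand genes did not pass. Slit1 had 970.0, 1021 and 1008.5 in mutant RGCs and 1136, 1066 and 858 in WT RGCs, with the mutant values inside the WT range. Its log2 fold change of -0.02 had a 95% interval of -0.29 to 0.25, so a change by 2-fold lies outside it (limma adjusted p = 0.908). Slit2 had 1342, 1550.1 and 1655 in mutant RGCs and 1289, 1378 and 1029.5 in WT RGCs, which overlapped (log2 0.30, SE 0.13, limma adjusted p = 0.120). Slit3 was barely detected, with 14.7, 10.6 and 24.9 in mutant RGCs and 40.0, 78.9 and 20.7 in WT RGCs. It had between 11 and 76 reads per library over all 9 libraries, and its difference did not pass (log2 -1.31, SE 0.54, limma adjusted p = 0.107).

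Of the effectors, Srgap1 had 1107.5, 1946 and 1920.5 in mutant RGCs and 3629, 3571 and 2199.6 in WT RGCs. The groups did not overlap, although WT library 3 came close to the mutant libraries. The log2 fold change was -0.93 (SE 0.28, 95% interval -1.60 to -0.26, limma adjusted p = 0.0516), while the authors' deposited table calls it lower at an adjusted p of 0.0408. That table calls 1 of the 9 members and 11.9% of its genes with a p. Srgap2 had 1809.7, 1929 and 1970.2 in mutant RGCs and 2476, 2483 and 1866 in WT RGCs, where only WT library 3 overlapped the mutant values (log2 -0.25, SE 0.12, limma adjusted p = 0.161). Srgap3 had 5665, 6146 and 6056 in mutant RGCs and 4805, 5329 and 5597 in WT RGCs (log2 0.19, SE 0.08, limma adjusted p = 0.121). Its groups did not overlap, as for Robo1 and Srgap1, a state that 51.1% of all genes tested shared.

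**Figure D2:**
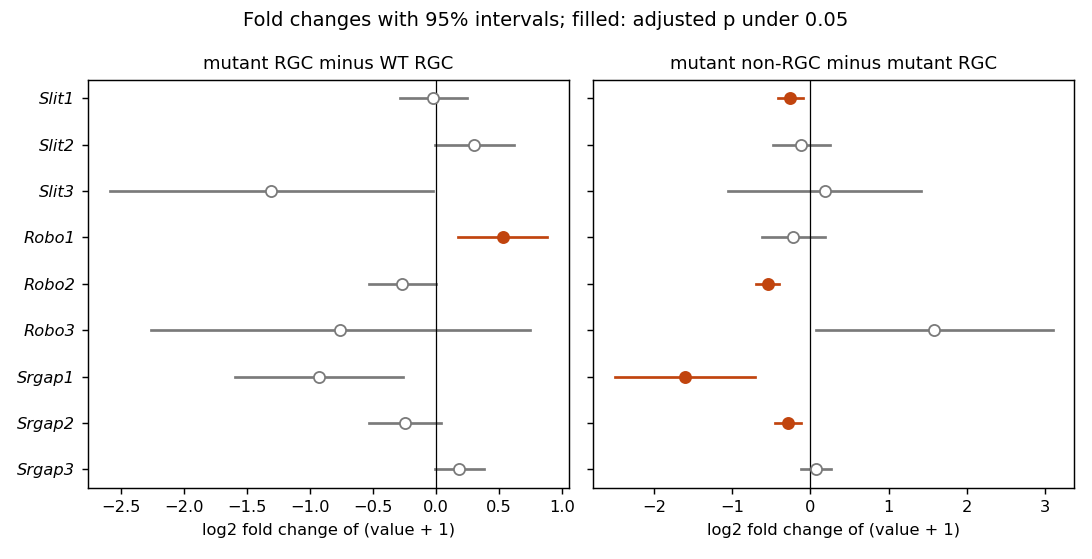
Log2 fold change of (value + 1) of each member with its 95% interval, for mutant RGC minus WT RGC (left) and mutant non-RGC minus mutant RGC (right); the panels have different horizontal scales and filled points passed the limma test. Robo1 passed on the left, and Slit1, Robo2, Srgap1 and Srgap2 passed on the right, all 4 below 0.

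These results depended on single libraries. For Robo1, leaving out WT library 1, 2 or 3 ended the call (limma adjusted p = 0.149, 0.108 and 0.0655), as did leaving out mutant RGC library 2 or 3 (0.0731 and 0.0736). It held without mutant RGC library 1, the high one, at a smaller log2 fold change of 0.36 (limma adjusted p = 0.0390). Without WT library 3, Slit3 (log2 -1.77), Robo2 (-0.38), Srgap1 (-1.16) and Srgap2 (-0.38) were called lower (limma adjusted p = 0.0337, 0.0168, 0.0207 and 0.00710) and 6478 genes were called in all. Without mutant RGC library 1, Robo3 was called lower at a log2 fold change of -1.53 (limma adjusted p = 0.0350). Leaving out WT library 1 or 2, or mutant RGC library 2 or 3, left at most 9 called genes in the whole table, so the loss of calls there was general.

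The second comparison sets the mutant non-RGC fraction against the mutant RGC fraction and asks in which of them each transcript was relatively higher. RGC markers were detected in both fractions, so a difference is relative. In all 1 receptor, 1 ligand and 2 effector genes were lower in non-RGC cells. Srgap1 fell most, by 3.05-fold, then Robo2 by 1.46-fold, Srgap2 by 1.22-fold and Slit1 by 1.19-fold. No member was called higher by limma, and at an unadjusted p under 0.05 Robo3 alone was, where 12.6% of all genes tested were. Of the 15178 genes tested by limma, 17.1% were called, 1820 lower and 770 higher, beside 4 of the 9 members, all lower. With total-count scaling the calls over the table split into 1598 lower and 1465 higher. The median log2 fold change was -0.22 over the members and 0.01 over all genes. This comparison uses the same mutant RGC libraries as the first, so the results of both are not independent. Its values carry the size factors of the authors' table of fractions, which shift the mutant RGC values slightly.

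Robo2 had 2956, 3020.3 and 3197 in mutant non-RGC cells and 4178, 4701 and 4546 in mutant RGCs. The groups lay well apart, with little spread within either (log2 -0.55, SE 0.06, limma adjusted p = 0.00650). The call held without each library in turn, at limma adjusted p between 0.00107 and 0.0461. Robo1 had 1551, 1588 and 2081.5 in mutant non-RGC cells and 2572, 1739 and 1815 in mutant RGCs, which overlapped (log2 -0.22, 95% interval -0.63 to 0.18, limma adjusted p = 0.433). Robo3 had 398, 331 and 781 in mutant non-RGC cells and 462.5, 84.3 and 96.7 in mutant RGCs. Only mutant RGC library 1 reached the non-RGC range. The log2 fold change was 1.58 (SE 0.65, limma adjusted p = 0.141), and without that library it was 2.36, with Robo3 then called higher in non-RGC cells (limma adjusted p = 0.00477).

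Srgap1 had 719.8, 741 and 292 in mutant non-RGC cells and 1142.5, 1978.5 and 1966 in mutant RGCs. Within each fraction 1 library was far below the other two, non-RGC library 3 and mutant RGC library 1, and the groups did not overlap (log2 -1.61, SE 0.38, limma adjusted p = 0.0299). Srgap2 had 1616, 1704 and 1473 in mutant non-RGC cells and 1867, 1961 and 2017 in mutant RGCs (log2 -0.29, SE 0.07, limma adjusted p = 0.0351). Slit1 had 842, 919 and 812 in mutant non-RGC cells and 1000.6, 1038 and 1032 in mutant RGCs (log2 -0.26, SE 0.07, limma adjusted p = 0.0474). All 3 were lower in every non-RGC library, and 4 of the 9 members, with Robo2, had groups that did not overlap, against 37.7% of all genes tested.

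Srgap1 no longer passed when mutant RGC library 2 or 3 was left out (limma adjusted p = 0.103 and 0.0990) or non-RGC library 1 (0.0689). The Srgap2 call was lost without any of the 3 non-RGC libraries (0.104, 0.0514 and 0.0501 for libraries 1, 2 and 3) or mutant RGC library 2 or 3 (0.127 and 0.139). The Slit1 call was lost without the same libraries, at 0.146, 0.0581 and 0.0716 for the non-RGC libraries and at 0.170 for mutant RGC libraries 2 and 3 alike. It was also lost under 6 of 8 changes of the processing. The authors' deposited table calls Robo2 and Srgap1 lower, at adjusted p of 0.00130 and 0.00592, and neither Srgap2 nor Slit1 (0.296 and 0.480), where it calls 6.47% of its genes. Without mutant RGC library 2 or 3 or non-RGC library 1 or 2, calls over the whole table dropped to 595, 621, 438 and 1243.

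Slit2 had 1629, 1597 and 1114 in mutant non-RGC cells and 1385, 1576 and 1694 in mutant RGCs, which overlapped (log2 -0.12, 95% interval -0.48 to 0.24, limma adjusted p = 0.654). Non-RGC library 3 was the low one, as for Srgap1. Slit3 had 11.0, 37.3 and 14.9 in mutant non-RGC cells and 15.1, 10.8 and 25.4 in mutant RGCs, which overlapped and did not pass (95% interval of the log2 fold change -1.06 to 1.42). Srgap3 had 6891, 6749 and 5672.5 in mutant non-RGC cells and 5844, 6247 and 6198.5 in mutant RGCs (log2 0.07, 95% interval -0.12 to 0.27, limma adjusted p = 0.589).

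**Figure D3:**
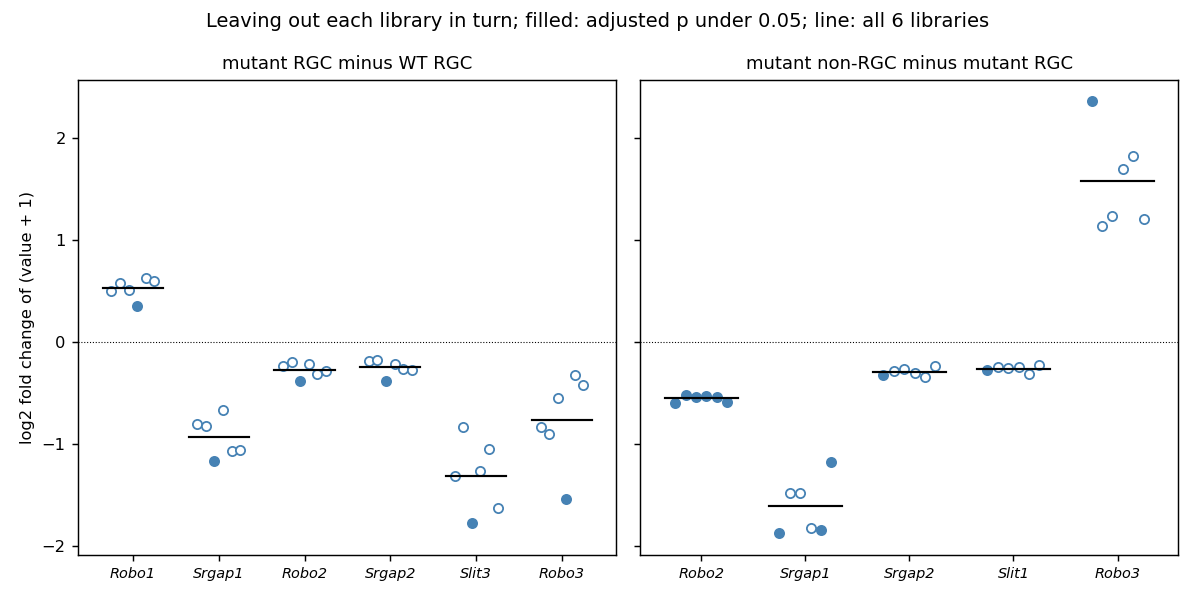
Log2 fold change of (value + 1) after leaving out each library in turn (points), for mutant RGC minus WT RGC (left) and mutant non-RGC minus mutant RGC (right); lines give the value with all 6 libraries and filled points passed the limma test. On the right all 6 points of Robo2 are filled, and Robo3 passes in each panel only without mutant RGC library 1.

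The members were set beside the content of RGC markers in the same libraries. On the scale common to the 9 libraries, Srgap1 had 691, 713 and 283 in mutant non-RGC, 1118, 1884 and 1879.6 in mutant RGC and 3659.9, 3619.6 and 2210.2 in WT RGC libraries. The RGC marker sum of the same libraries was 7453, 8825 and 4272, then 14729, 23605.5 and 23643, then 35065, 35734 and 30532. Library by library, including the low library within each group, Srgap1 and the marker sum ran in nearly the same order. Robo2 kept the order of the groups, with means of 2945, 4304 and 5335, but non-RGC library 3, lowest in markers, was the highest non-RGC library for Robo2. Srgap2, with 1551, 1640 and 1425 in mutant non-RGC, 1826.5, 1867.5 and 1928 in mutant RGC and 2497, 2516.5 and 1875 in WT RGC libraries, ran in the order of the marker sum within every group, though WT library 3 lay below mutant RGC library 3. Slit1 also stepped by group, with means of 826, 985 and 1029.7, but WT library 3 (862) was below every mutant RGC library. The part of marker content in these results was not tested. Of the 14 markers 7 were called lower in mutant than in WT RGCs and 8 lower in mutant non-RGC cells than in mutant RGCs, with median log2 fold changes of -0.75 and -1.83. Of all genes tested, 12.3% were called lower between the genotypes and 1820 of 15178 between the fractions. The markers include Thy1, whose product the beads bind, so the marker sum is not independent of the bead selection.

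**Figure D4:**
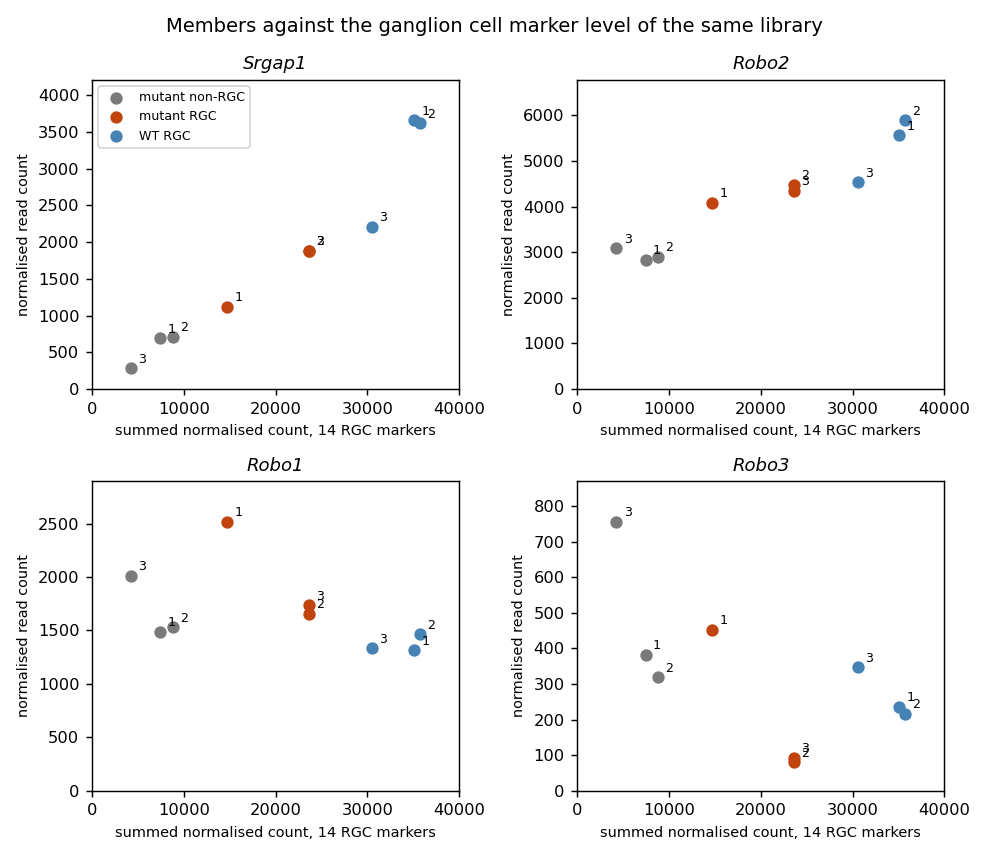
Normalised read count of Srgap1, Robo2, Robo1 and Robo3 (vertical axes) against the summed normalised count of 14 RGC markers (horizontal axis) in the same library, for 9 libraries coloured by group and numbered within it. Srgap1 climbs with the marker sum from 283 to 3660 normalised counts, while Robo1 is highest in mutant RGC library 1 and Robo3 lowest in mutant RGC libraries 2 and 3.

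Robo1 and Robo3 did not follow that order. Robo1 was highest in mutant RGC library 1 (2517) and non-RGC library 3 (2014), each with the lowest RGC sum of its group, and lay between 1315 and 1736 in the other 7 libraries. Robo3 ranged from 80.3 in mutant RGC library 2 to 756 in non-RGC library 3. Between the fractions all 8 microglia markers were called lower in non-RGC cells, where their sum was between 38.5 and 59.1 against between 1678 and 6357 in mutant RGCs. Endothelial and pericyte markers summed to between 6033 and 6674 in mutant non-RGC, between 5370.1 and 9131 in mutant RGC and between 3850 and 5123 in WT RGC libraries. Between the genotypes all 6 dividing cell markers, 6 of 9 amacrine, 3 of 7 photoreceptor and 3 of 9 progenitor and Müller glia markers were called higher in mutant RGCs, beside 13.7% of all genes tested. The part of these cells in the Robo1 and Robo3 values was not tested.

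Over the 9 libraries, the genes whose log2 pattern was most like that of Robo2 were Chst15, which encodes a chondroitin sulfate sulfotransferase, the kinase gene Jak1 and Syt1, which encodes the calcium sensor of synaptic vesicles, with Pearson r of 0.997, 0.997 and 0.996. Chst15 ranged over 2.97 log2 units, Jak1 over 1.18 and Syt1 over 1.23, against 1.06 for Robo2. Robo1 was most like Atf6, Padi2 and Arhgap31 (r of 0.968, 0.965 and 0.964) and Robo3 most like Flcn, Samd11 and Arid3c (0.985, 0.961 and 0.955). Slit1 was most like Pcdhb10, Uhrf1bp1 and Dnajc16 (0.968, 0.966 and 0.961), Slit2 most like Zc2hc1c, Mcm3ap and Vldlr (0.929, 0.925 and 0.918) and Slit3 most like Scarf2, Prmt10 and Arid1b (0.927, 0.888 and 0.885). A high r does not mean a change of like size. Flcn ranged over 0.596 log2 units, Samd11 over 1.420 and Arid3c over 2.926, against 3.219 for Robo3. Scarf2 ranged over 2.745, Prmt10 over 0.293 and Arid1b over 0.328, against 2.846 for Slit3, which had at most 76 reads in a library. These are the closest among all genes with a mean of at least 50, in 9 libraries from 3 groups that share group, depth and cell content, and they are given as a description.

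Of 73 other genes of SLIT and ROBO signalling in 5 lists, 70 were tested in each comparison. In mutant RGCs against WT, 9 of the 70 were called higher and 4 lower, with a median log2 fold change of -0.03, where 13.7% of all genes tested were called higher and 12.3% lower. The balance depended on the setting, since upper-quartile scaling gave 9 higher and 10 lower, against 13 and 13 in 1 fit of all 9 libraries and 5 and 7 in the authors' deposited table. In mutant non-RGC cells against mutant RGCs, 4 of the 70 were called higher and 13 lower (median -0.08), where 17.1% of all genes tested were called, 770 higher and 1820 lower. The counts of single lists given next rest on few genes, are to be read against these shares and are a description. Of 12 genes for SLIT-binding proteins, co-receptors and ROBO ligands, 1 was higher and 1 lower in mutant RGCs. Dag1, which encodes dystroglycan, a SLIT-binding matrix receptor, averaged 2847 ± 25.6 in mutant RGCs and 2268 ± 107 in WT RGCs (SD, n = 3 each), and was called higher at a log2 fold change of 0.33 (limma adjusted p = 0.0246). Nell1, a relative of the ROBO3 ligand gene Nell2, averaged 429 ± 172 in mutant RGCs and 1031 ± 247 in WT RGCs (SD, n = 3 each), and was called lower at a log2 fold change of -1.33 (limma adjusted p = 0.0387). Plxna1, a plexin gene whose product binds SLIT fragments, did not pass there (log2 -0.42, limma adjusted p = 0.0548) but was lower in non-RGC cells than in mutant RGCs (log2 -0.65, SE 0.08, limma adjusted p = 0.00711).

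In the same list Flrt2 (log2 -0.44), Nell1 (-1.71) and Nell2 (-2.05) were also lower in non-RGC cells and the chemokine receptor gene Cxcr4 (0.23) was higher (limma adjusted p = 0.0133, 0.0218, 0.0236 and 0.0283). Nell2 averaged 779 ± 408 in mutant non-RGC cells and 2926 ± 809 in mutant RGCs (SD, n = 3 each). It averaged 2861 ± 806 in mutant RGCs and 4381 ± 253 in WT RGCs on the scale of the first comparison, which did not pass (log2 -0.66, limma adjusted p = 0.0594). Nell2, Cxcr4, Sdc3 and, between the genotypes, Pak1 are named in addition to the rule, a choice made with their values known. Robo4 and, between the genotypes, Isl1, Isl2 and Pou4f2 are likewise named in addition to it. Of 15 heparan sulfate genes, whose products help SLIT bind ROBO, 3 rose in mutant RGCs. They were the sulfotransferase genes Hs2st1 (log2 0.31) and Ndst2 (0.39) and the syndecan gene Sdc2 (0.84), with limma adjusted p of 0.0244, 0.0419 and 0.0246. In non-RGC cells 4 of the 15 were lower, Extl3 (log2 -0.47), Hs6st1 (-0.70), Ndst1 (-0.30) and Sdc3 (-0.47), at limma adjusted p between 0.00914 and 0.0236.

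Of 8 receptor processing and trafficking genes, the ubiquitin ligase gene Itch was higher in mutant RGCs (log2 0.43, limma adjusted p = 0.0326), while Ndfip2 (log2 -0.31) and Ndfip1 (-0.15), whose products recruit ligases to ROBO1, did not pass (limma adjusted p = 0.0542 and 0.0877). In non-RGC cells Nedd4l (log2 -0.50) and Adam10, a protease gene (-0.24), were lower (limma adjusted p = 0.0175 and 0.0317), and Ndfip2 did not pass (log2 -0.18, limma adjusted p = 0.316). Of 24 cytoplasmic effector genes, 1 was higher and 3 were lower in mutant RGCs. The kinase gene Pak2 rose (log2 0.43), and Vasp, an actin regulator gene (-0.43), the unconventional myosin gene Myo9b (-0.50) and Pak1 (-0.47) fell (limma adjusted p = 0.0246, 0.0215, 0.0295 and 0.0384). Between the fractions Myo9b was higher in non-RGC cells (log2 0.78) and Pak1 (-0.57) and Pak3 (-0.37) were lower (limma adjusted p = 0.0131, 0.0205 and 0.0371).

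Among 14 transcription factor genes listed as regulators of Slit and Robo expression in neurons, of which Isl1, Isl2 and Pou4f2 are also RGC markers, 11 were tested, and 3 LIM homeobox genes rose in mutant RGCs. Lhx9 averaged 781 ± 116 in mutant RGCs and 403 ± 105 in WT RGCs (SD, n = 3 each; log2 0.97, limma adjusted p = 0.0268), and Lhx3 (log2 1.68) and Lhx4 (1.03) were called at limma adjusted p of 0.0397 and 0.0471. Isl1 (log2 -0.724), also a LIM homeobox gene, Isl2 (-0.784), another, and Pou4f2 (-0.882) went the other way. None of these passed (limma adjusted p = 0.1055, 0.0781 and 0.0579), and the list median was log2 0.545. In non-RGC cells Isl2, also one of the RGC markers, was lower (log2 -1.75) and Lhx2 (0.25) and Zic2 (0.26) were higher (limma adjusted p = 0.0130, 0.0191 and 0.0197). All 13 calls of the lists between the genotypes, Dag1, Nell1, Lhx9 and the others named here, were lost by limma without WT library 1 or 2 or without mutant RGC library 2 or 3. Without mutant RGC library 1, 13 genes of the 5 lists were called between the genotypes, of which 9 are among the 13 called with all libraries. Without WT library 3 there were 30, which include all 13. Between the fractions the 17 calls over the lists dropped to 2, 3, 3 and 11 without mutant RGC library 2 or 3 or non-RGC library 1 or 2.

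**Figure D5:**
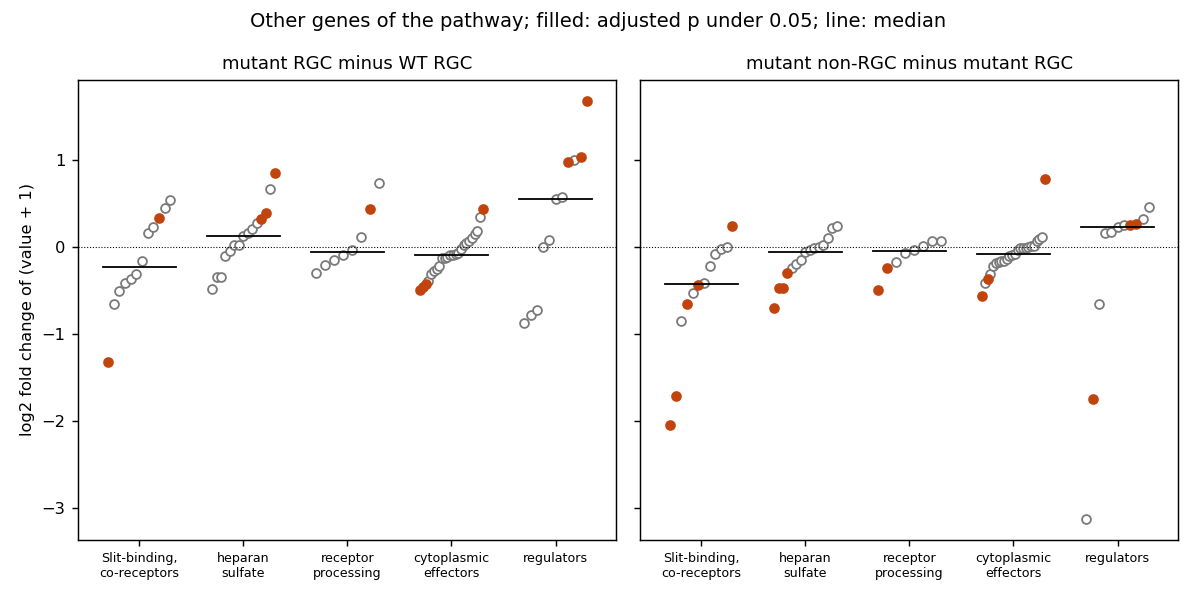
Log2 fold change of (value + 1) of the tested genes in 5 lists of the pathway (points, ordered by value within a list), for mutant RGC minus WT RGC (left) and mutant non-RGC minus mutant RGC (right); filled points passed the limma test and lines are list medians. The Slit-binding and co-receptor list has 1 lower call on the left and 4 on the right, and 3 regulators pass above 0 on the left.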

How the data were processed

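The submitters' processing notes name STAR 2.3, FastQC, featureCounts and DESeq, with build mm10. No strand setting is stated, so reads of a gene and of an antisense partner may not be separated; Fam72a lies inside the span of Srgap2, with 709 reads against 17290 over the 9 libraries. Table names show that duplicates were removed. The 2 deposited tables give mean normalised counts per condition (reads divided by size factors), the ratio of both means (fold change, B over A), the log2 of that fold change and p-values, per the file headers. Which condition is A or B follows from the genes at 0 shared by both tables.

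Each library's whole reads were worked out from the deposited means: the 3 smallest values give the size factors, and a search gave 3 whole counts per gene within 1e-09, for at least 99.975% of genes above 0. From the mutant RGC counts, 23953 of 23953 means of the second table were matched within 1e-08. A solution was kept only if the next best lay more than 10 times further off. In WT RGCs, Ank2, Kif1b, Reln, Adcy1, Map1b and Dync1h1 had no solution that met both this rule and the limit of 1e-09. These genes do not enter the comparison of genotypes, and Dync1h1 is also missing from that of fractions. The recovery was checked on simulated means below those of the most abundant genes, and the fit on counts simulated with the same dispersion for all genes. Libraries that stand apart within a group were not simulated.

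limma 3.58.1 (R 4.3.3) with a variance trend was fitted to log2(value + 1) of the 6 libraries of a comparison, for genes with a mean of at least 10, with Benjamini-Hochberg adjustment over all genes tested. Levels over all 9 libraries used median-of-ratios factors. No count model was run, since the counts are worked out from means. Alternatives were another pseudocount, filters, scalings, voom weights, 1 fit of 9 libraries, the authors' deposited p-values and leaving out each library. Levels of different genes were not compared, since no transcript length was used. Named genes are the members, from each list and comparison the 3 genes lowest in adjusted p, and the 3 genes most like each Slit and Robo gene. The last had a mean of at least 50, and predicted genes, clone names and pseudogenes were passed over. Members and lists were chosen with earlier results of these data known. Symbols of all 9 members matched RefSeq (GRCm38.p6), and 8 had a promoter sequence, the exception being Slit1.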

Additional observations from a re-analysis of the deposited data

How the results depend on the processing

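The number of members called between mutant and WT RGCs was 1. It was 0 with no filter on low values and 2 with a mean of at least 50, with total-count scaling, with voom weights or with all 9 libraries in 1 fit, and ranged from 0 to 4 when a library was left out. Srgap1 was the second call except in the fit of 9 libraries, where it was Robo2, and under upper-quartile scaling and in the authors' deposited table Srgap1 was called in place of Robo1. Over its 14 alternatives the Robo1 log2 fold change stayed between 0.36 and 0.63 and that of Srgap1 between -1.16 and -0.66. Between the fractions 4 members were called. There were 2 with total-count scaling, with all 9 libraries in 1 fit or with the deposited p-values, each time Robo2 and Srgap1, 3 with no filter, upper-quartile scaling or voom weights, where Slit1 was lost (adjusted p = 0.0764, 0.0622 and 0.0544), and 1 to 5 when a library was left out; Robo2 was called in all 14. Over the whole table, calls ranged from 3 to 6478 between genotypes and from 438 to 3325 between fractions when a library was left out, and the deposited p-values called 1635 between fractions. Direction turned only for members that did not pass. Slit1 between genotypes (log2 -0.02) was 0.027 with total-count scaling and ranged from -0.139 to 0.063 when a library was left out, above 0 without WT library 1, WT library 2 or mutant RGC library 1. Between fractions Slit3 (0.18) ranged from -0.310 to 0.525, below 0 without mutant RGC library 2 (-0.090) or non-RGC library 2, and Slit2 (-0.12) from -0.213 to 0.061, above 0 without non-RGC library 3. The causes were not tested. No paired analysis was possible because the tables carry no replicate numbers. Slit3, with at most 76 reads in a library, could not be tested with a mean of at least 50.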
